A study of Mus musculus with 6 samples.

Results

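The SLC2 family of facilitative carriers, known as GLUT proteins, was examined gene by gene in mouse gastrocnemius, a fast-twitch calf muscle. The members were 10 genes of the deposited count table, chosen by symbol: Slc2a1, Slc2a3, Slc2a4, Slc2a5, Slc2a6, Slc2a8, Slc2a9, Slc2a10, Slc2a12 and Slc2a13. The table held 54532 genes, and 12 of them carried a symbol of this family. The other two, Slc2a2 and Slc2a7, had 17 and 1 counts over all libraries and were not members. Messenger RNA was sequenced in 3 libraries labelled MP and 3 control libraries labelled Ctrl. The libraries labelled MP came from mice of genotype Mck cre with a transgene named Tg Glut1-Hk2-Pfkfb3, and the control libraries from mice of genotype Mck cre alone. All mice were C57BL/6J, aged 3 months, and had received 0.2% doxycycline in their water from 4 weeks of age, so that the Cre driver and the drug were common to both groups. The Mck promoter, that of muscle creatine kinase, drives Cre in striated muscle. Whether each library is a mouse of its own is not stated in the labels; p-values then cover only library-to-library spread, which may be technical.

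Most SLC2 proteins let hexoses and related small molecules cross membranes down their own gradient, and the family's members differ in substrate, affinity and place in the cell. In skeletal muscle the main carrier is GLUT4, which waits in storage vesicles and moves to the fibre surface after insulin or contraction, while GLUT1 sits at the surface and carries basal uptake. Fructose is carried by GLUT5, and other members carry urate, dehydroascorbate or myo-inositol, or work inside the cell on endosomes and lysosomes.

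The libraries held 19546456 to 24665024 counts. Ctrl replicate 1 stood apart, with correlations of log2 CPM (counts scaled to a common library size, on TMM library sizes) of at most 0.958 with any other library, against at least 0.978 for the best partner of each of the others. It also held the B cell and T cell markers. The 6 B cell markers summed to 477 CPM there and to 6.90 to 56.5 CPM elsewhere, and the 6 T cell markers to 86.0 CPM there and 0.520 to 3.64 CPM elsewhere. MP replicate 1 also differed from its group. Its chi-square per degree of freedom was 87.3 against MP replicate 2 and 78.3 against MP replicate 3. For Ctrl replicate 1 it was 71.4 against Ctrl replicate 2 and 60.4 against Ctrl replicate 3. MP replicates 2 and 3 had 11.8 between them, and Ctrl replicates 2 and 3 had 20.3. Calls of members and list genes that change without Ctrl replicate 1 are given with and without it. The 6 fast and shared fibre markers (Ckm, Acta1, Mylpf, Tnnt3, Myh4 and Myh1) were present in every library and summed to 86720 to 130500 CPM, as the tissue label states. Of the 2 other genes named in the transgene, Hk2 averaged 230.3 ± 96.1 CPM in libraries labelled MP and 169 ± 16.1 CPM in control libraries, and Pfkfb3 averaged 379.5 ± 227 CPM in libraries labelled MP and 1087 ± 503 CPM in control libraries (SD, n = 3 each). Hk2 had 341, 168 and 182 CPM in MP replicates 1, 2 and 3, and 156, 165 and 187 CPM in Ctrl replicates 1, 2 and 3. Only MP replicate 1 was above the control range, so the higher mean rests on that library. Pfkfb3 had 120, 476 and 542 CPM in the libraries labelled MP and 579, 1096 and 1585 CPM in control libraries. Neither Hk2 nor Pfkfb3 passed the test, and neither did Slc2a1, which is described with the members. The groups are therefore named by their labels.

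At an adjusted p threshold of 0.05 by edgeR, 1 of the 10 members passed, higher in libraries labelled MP, and 0 passed as lower. Of all 14973 genes tested 1.30% passed, 0.788% as higher and 0.508% as lower. At an unadjusted p under 0.05 there were 3 of 10 members, against 20.8% of all genes. DESeq2 called 2 members, Slc2a3 and Slc2a5, and 7.11% of all genes. The member past the threshold was the fructose carrier Slc2a5, nearly unread in control muscle and present at a low level in every library labelled MP. All 10 members were kept by the filter on low counts, but Slc2a5 was kept through the libraries labelled MP alone. Of the log2 fold changes of the 10 members 7 were negative, with a median of -0.24, and 53.4% of those of all genes tested were negative, with a median of -0.03. The CPM values of the groups did not overlap in 3 of 10 members (Slc2a5, Slc2a3 and Slc2a10), against 27.4% of all genes tested, so that share is near the background.

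**Figure D1:**
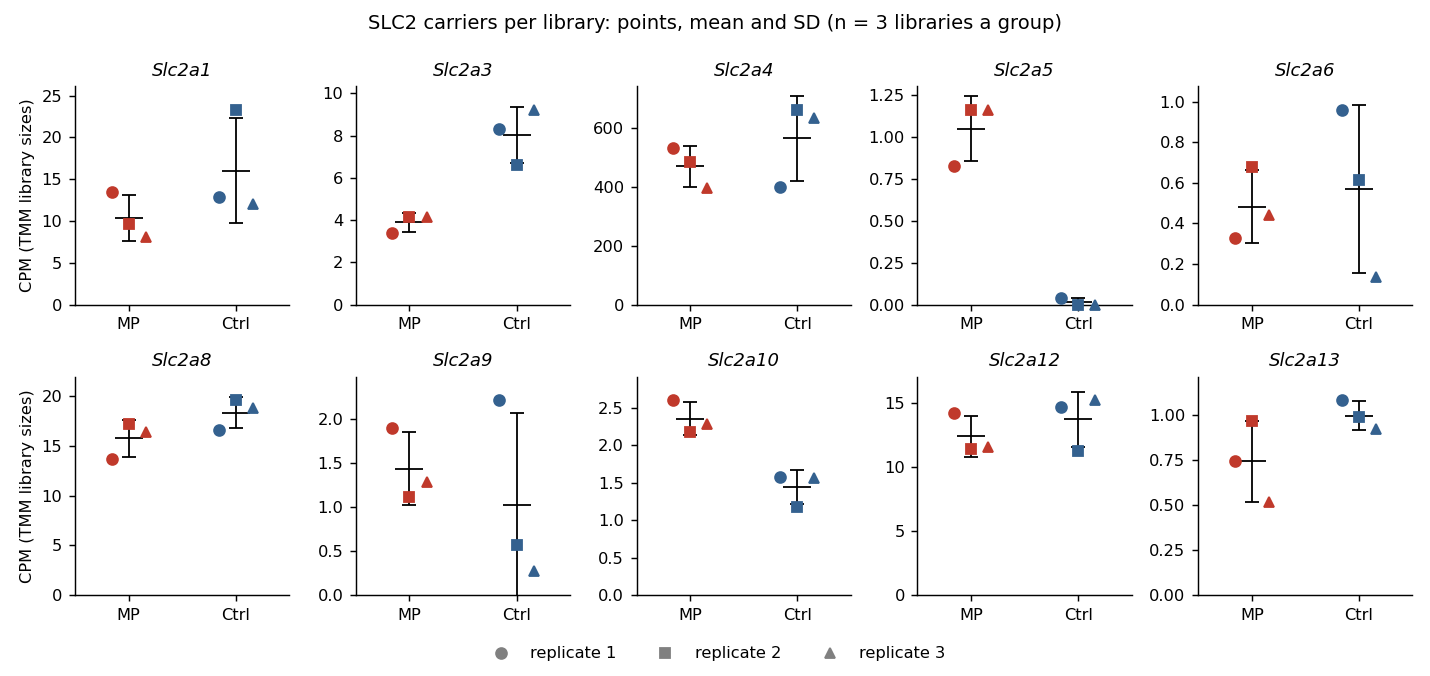
CPM of each carrier (vertical axes, each starting at 0) in the 3 libraries labelled MP and the 3 labelled Ctrl; points are libraries, the wide tick is the mean and the bar the SD, cut at 0 for Slc2a5 and Slc2a9 in Ctrl. The groups are apart in Slc2a5, Slc2a3 and Slc2a10 and overlap in the other 7 panels.

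Slc2a5 (ENSMUSG00000028976) encodes GLUT5, the fructose carrier best known from the small intestine. It lies on chromosome 4, 150119283 to 150144169, plus strand, on GRCm38. Its counts in MP replicates 1, 2 and 3 were 20, 24 and 29, against 1, 0 and 0 in Ctrl replicates 1, 2 and 3. Every library labelled MP was above every control library. In CPM these were 0.826, 1.16 and 1.16 in libraries labelled MP and 0.0417, 0 and 0 in control libraries, where 3 counts, the floor of detection used here, are 0.120 to 0.145 CPM. The pooled counts were 73 in libraries labelled MP and 1 in control libraries, a ratio of 69.9 after scaling, with an exact 95% counting interval from 12.2 to 2798. That interval covers counting error only, and the single control count sets its width. The edgeR log2 fold change was 5.69 ± 0.73 (SE) with an adjusted p of 0.0188, and its size depends on the small count that the fit adds to 0. The two-sided exact permutation p of Slc2a5 was 0.1, the smallest that 3 libraries against 3 allow.

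The call of Slc2a5 was lost in 4 of the 6 fits without a library. Without Ctrl replicate 1, the only control library with a read, the adjusted p by edgeR was 0.0139, and without MP replicate 1 it was 0.0352. Without MP replicate 2, MP replicate 3, Ctrl replicate 2 and Ctrl replicate 3 it was 0.0955, 0.0917, 0.0735 and 0.114. In the fit without Ctrl replicate 3 no gene of the table passed by edgeR, although 2116 had an unadjusted p under 0.05. A filter of at least 1 CPM on average leaves Slc2a5 out.

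Genes beside Slc2a5 had almost no reads. Gm13093 is a noncoding RNA gene on the other strand, which starts 19 bases before Slc2a5 and runs away from it. It had 1 count in MP replicate 2 and 0 in the other 5 libraries. Slc2a7, a related carrier that starts 4802 bases after the end of Slc2a5 on the same strand, had 1 count in MP replicate 1 and 0 elsewhere. No other gene of GENCODE M21 lies within 5000 bases of Slc2a5.

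The promoter windows of GRCm38.p6, from 250 bases before to 50 bases after the RefSeq start of a gene, cover 8 of the 10 members. Slc2a3 and Slc2a4 have no entry. Shown are those of Slc2a5 (chr4:150119094-150119393, plus strand), the member that passed, of Slc2a10 (chr2:165503647-165503946, plus strand), the other member whose groups did not overlap with the libraries labelled MP on top, and of Slc2a1 (chr4:119108495-119108794, plus strand), the endogenous counterpart of a gene of the transgene. Sequences run 5′ to 3′. In each window shown, the RefSeq start lies after the gene start of the coordinates given here. The Slc2a9 window (chr5:38483336-38483635, minus strand) lies inside the gene, away from the gene start of those coordinates. Capitals mark, on either strand, the GC box GGGCGG, the box named CCAAT, the TATA box TATAAA and the E-box CACGTG, which MLX and MYC family factors bind.
Slc2a5: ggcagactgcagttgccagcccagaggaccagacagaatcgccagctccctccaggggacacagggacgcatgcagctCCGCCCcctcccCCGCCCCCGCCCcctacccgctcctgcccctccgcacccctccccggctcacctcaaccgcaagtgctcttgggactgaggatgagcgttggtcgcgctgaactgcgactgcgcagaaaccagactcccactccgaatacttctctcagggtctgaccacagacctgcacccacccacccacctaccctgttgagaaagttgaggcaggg
Slc2a10: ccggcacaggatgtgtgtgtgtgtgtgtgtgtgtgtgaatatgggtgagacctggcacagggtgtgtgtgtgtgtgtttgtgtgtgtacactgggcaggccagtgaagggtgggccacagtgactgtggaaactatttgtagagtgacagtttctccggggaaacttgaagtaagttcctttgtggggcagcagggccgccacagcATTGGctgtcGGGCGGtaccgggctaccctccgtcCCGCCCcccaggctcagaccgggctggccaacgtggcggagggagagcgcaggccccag
Slc2a1: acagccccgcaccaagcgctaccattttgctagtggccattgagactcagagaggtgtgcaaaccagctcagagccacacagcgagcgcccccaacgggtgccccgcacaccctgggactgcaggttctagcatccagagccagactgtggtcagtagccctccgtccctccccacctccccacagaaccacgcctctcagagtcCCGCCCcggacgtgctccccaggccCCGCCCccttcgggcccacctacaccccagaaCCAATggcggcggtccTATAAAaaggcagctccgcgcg
The Slc2a5 window held 3 GC boxes, the last 2 of them side by side, and no match to the other 3 motifs. The Slc2a10 window held 2 GC boxes and 1 CCAAT box, and the Slc2a1 window 2 GC boxes, 1 CCAAT box and 1 TATA box. In the Slc2a1 window the CCAAT box and the TATA box lie after the RefSeq start, beginning at bases 13 and 29. Over the 8 members with a window, 5 held a GC box, 4 a CCAAT box, 1 a TATA box and 0 the E-box. Over all 32851 promoter windows of this length the shares were 35.7% for the GC box, 37.4% for the CCAAT box, 13.6% for the TATA box and 7.15% for the E-box. No motif contains another, and a match here is a description of letters, not of a bound site.

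The glucose carriers of the classic kind were led by Slc2a4 (ENSMUSG00000018566, chromosome 11, 69942539 to 69948188, minus strand), which encodes GLUT4. It had 529.7, 482 and 395 CPM in MP replicates 1, 2 and 3, against 399, 659.9 and 631 CPM in Ctrl replicates 1, 2 and 3. The groups overlapped, with Ctrl replicate 1 among the libraries labelled MP. The means were 469 ± 68.5 CPM in libraries labelled MP and 563 ± 143 CPM in control libraries (SD, n = 3 each), and the log2 fold change was -0.27 ± 0.22 (SE, 95% interval -0.79 to 0.25, edgeR adjusted p = 0.525). Without Ctrl replicate 1 it was -0.46, with an edgeR adjusted p of 0.0811. GLUT4 is also made by fat cells, and the 5 adipocyte markers summed to 85.1 to 309 CPM in libraries labelled MP and 78.6 to 390.4 CPM in control libraries. That part was not tested. In bulk tissue, fewer cells of a type and less RNA per cell cannot be told apart.

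Slc2a1 (ENSMUSG00000028645, chromosome 4, 119108711 to 119137983, plus strand) encodes GLUT1, which is named in the transgene. Its counts were 326, 198 and 201 in MP replicates 1, 2 and 3, against 308, 493 and 260 in the control libraries of the same numbers. In CPM these were 13.5, 9.60 and 8.05 in libraries labelled MP and 12.8, 23.3 and 11.98 in control libraries. Ctrl replicate 2 was high and MP replicate 1 lay within the control range. The log2 fold change was -0.63 ± 0.31 (SE, 95% interval -1.34 to 0.08, edgeR adjusted p = 0.290), and without Ctrl replicate 2 it was -0.26 ± 0.24, with an adjusted p of 0.635. No source used here gives the transgene's species or sequence, and its reads enter this count only where they match the mouse gene. GLUT1 is also made by endothelium and perineurium. The 5 endothelial markers summed to 572, 274 and 300.1 CPM in libraries labelled MP and 293, 209.8 and 245.5 CPM in control libraries, and the 3 perineurial markers to 15.4 to 16.4 CPM in libraries labelled MP and 10.8 to 15.2 CPM in control libraries. Their part in the Slc2a1 values was not tested.

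Slc2a3 (ENSMUSG00000003153, chromosome 6, 122727809 to 122801640, minus strand) encodes GLUT3, a high-affinity glucose carrier of neurons and white blood cells. It had 3.39, 4.17 and 4.17 CPM in MP replicates 1, 2 and 3, against 8.30, 6.62 and 9.22 CPM in Ctrl replicates 1, 2 and 3. All libraries labelled MP were below all control libraries. The means were 3.91 ± 0.450 CPM in libraries labelled MP and 8.04 ± 1.32 CPM in control libraries, a fold of 0.485 (95% interval 0.349 to 0.674). The log2 fold change was -1.04 ± 0.20 (SE), and the edgeR adjusted p of 0.0604 missed the threshold. Its exact permutation p was 0.1. Without Ctrl replicate 1, the library with lymphocyte markers, the log2 fold change was -1.02 and the adjusted p 0.0281, where 13.1% of all genes tested passed. By DESeq2 with all libraries it had an adjusted p of 0.0025, but over the other edgeR fits without a library the adjusted p ran up to 0.229. Gm4482, a processed pseudogene inside an intron of Slc2a3, had 2 to 18 counts.

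Among the members with other substrates, Slc2a10 (ENSMUSG00000027661, chromosome 2, 165503787 to 165519917, plus strand) encodes GLUT10, whose loss causes arterial tortuosity syndrome in humans. It had 2.60, 2.18 and 2.28 CPM in MP replicates 1, 2 and 3, against 1.58, 1.18 and 1.57 CPM in Ctrl replicates 1, 2 and 3. Each library labelled MP was above each control library. The log2 fold change was 0.70 ± 0.24 (SE, 95% interval 0.13 to 1.27), and the edgeR adjusted p of 0.174 did not pass. Without Ctrl replicate 1 the adjusted p was 0.0862, and the log2 fold change lay between 0.58 and 0.78 over the 6 fits without a library. GLUT10 is known from vascular smooth muscle, and the 4 smooth muscle and pericyte markers (Notch3, Myh11, Rgs5 and Pdgfrb) had positive log2 fold changes. Past the threshold by edgeR were 0 of 4, and 2 of 4 without Ctrl replicate 1, where 13.1% of all genes tested passed. Rgs5 overlapped between the groups. The markers summed to 490.3, 309 and 382 CPM in libraries labelled MP and 275, 240.2 and 284 CPM in control libraries. Their part in the Slc2a10 difference was not tested. Positive log2 fold changes were not particular to them. The 5 endothelial, 6 macrophage and 3 perineurial markers were all positive too, while the other marker lists were mixed or all negative.

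Slc2a9 (ENSMUSG00000005107, chromosome 5, 38349273 to 38503143, minus strand) encodes GLUT9, a urate carrier of liver and kidney. Its counts were 46, 23 and 32 in MP replicates 1, 2 and 3, against 53, 12 and 6 in Ctrl replicates 1, 2 and 3. Ctrl replicate 1 had the highest count of the 6 libraries and the other control libraries had the lowest. With all libraries its log2 fold change was 0.46 ± 0.64 (SE, edgeR adjusted p = 0.712). Without Ctrl replicate 1 it was 1.76, with an adjusted p of 0.0456, where 13.1% of all genes tested passed. Whether the cells behind the lymphocyte markers of that library carry these reads was not tested.

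Slc2a6 (ENSMUSG00000036067, chromosome 2, 27021363 to 27027998, minus strand) encodes GLUT6, a lysosomal carrier of macrophages and other white blood cells. Its counts were 8, 14 and 11 in MP replicates 1, 2 and 3, against 23, 13 and 3 in Ctrl replicates 1, 2 and 3. The control libraries were spread on both sides of those labelled MP. The log2 fold change was -0.28 ± 0.61 (SE, edgeR adjusted p = 0.823), and its sign turned without Ctrl replicate 1 (0.34, adjusted p = 0.734) and in limma-voom with all libraries (0.024). The 6 macrophage markers summed to 86.6, 118 and 96.7 CPM in libraries labelled MP and 113, 49.1 and 78.4 CPM in control libraries.

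Slc2a8 (ENSMUSG00000026791, chromosome 2, 32972990 to 32982083, minus strand) encodes GLUT8, a carrier held inside the cell on endosomes and lysosomes. It had 13.6, 17.2 and 16.4 CPM in MP replicates 1, 2 and 3, against 16.6, 19.6 and 18.8 CPM in Ctrl replicates 1, 2 and 3. The groups overlapped. By edgeR the difference was -0.22 ± 0.15 on the log2 scale (SE, 95% interval -0.56 to 0.12, adjusted p = 0.426), the smallest SE of the 10 members.

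Slc2a12 (ENSMUSG00000037490, chromosome 10, 22645011 to 22704285, plus strand) encodes GLUT12, a second insulin-responsive carrier known from human muscle. It had 14.2, 11.4 and 11.5 CPM in MP replicates 1, 2 and 3, against 14.7, 11.2 and 15.2 CPM in Ctrl replicates 1, 2 and 3. The groups overlapped, and the log2 fold change was -0.15 ± 0.17 (SE, 95% interval -0.55 to 0.26, edgeR adjusted p = 0.663). Slc2a12 shares 407 exon bases at its 3′ end with Tbpl1, a gene on the other strand, and as the counting's strand setting is unknown, its value is uncertain by the reads from there. Tbpl1 itself had 348 to 480 counts per library.

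Slc2a13 (ENSMUSG00000036298, chromosome 15, 91267696 to 91573261, minus strand) encodes HMIT, a proton-coupled carrier of myo-inositol. Its counts were 18, 20 and 13 in MP replicates 1, 2 and 3, against 26, 21 and 20 in Ctrl replicates 1, 2 and 3. The groups overlapped, and the difference was -0.44 ± 0.33 on the log2 scale (SE, 95% interval -1.20 to 0.32, edgeR adjusted p = 0.468).

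**Figure D2:**
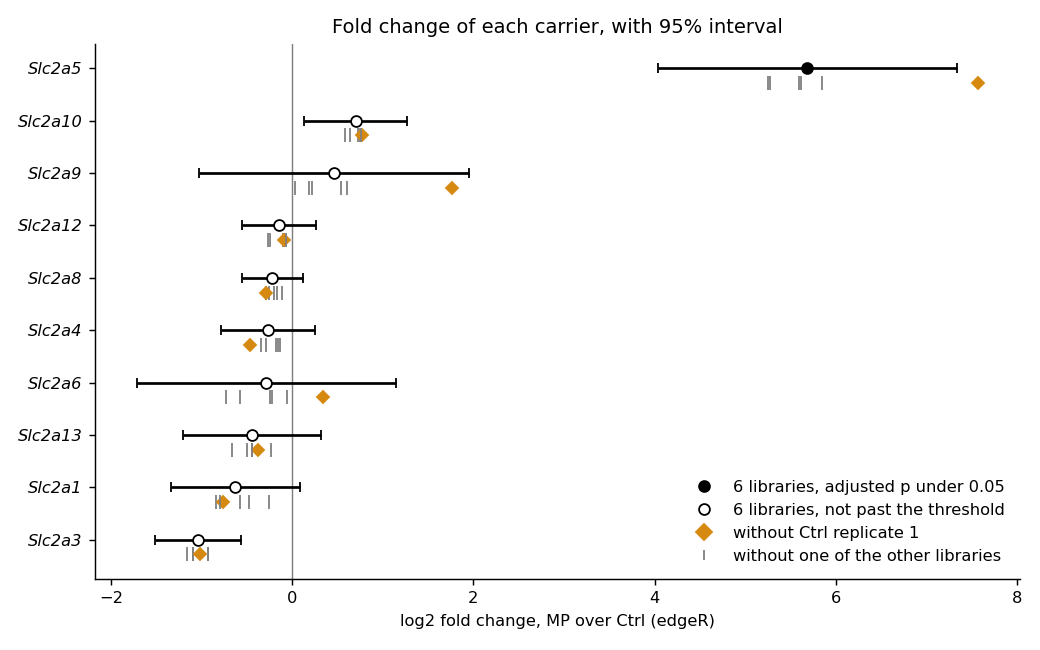
Log2 fold change, MP over Ctrl, of each carrier by edgeR (horizontal axis); circles with bars are the fit with all 6 libraries and its 95% interval, filled where the adjusted p was under 0.05, and the marks under them are the fits without 1 library. Slc2a5 alone is filled, and the diamonds, without Ctrl replicate 1, move most in Slc2a5, Slc2a9 and Slc2a6.

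The fits without a library show how firmly each member was measured. Slc2a6 and Slc2a9 had SEs of 0.61 and 0.64 on the log2 scale and moved by more than their own fold change when Ctrl replicate 1 was left out. Slc2a5 had the largest SE of the members, 0.73, and went from 5.69 to 7.57 without Ctrl replicate 1. The SEs of the abundant Slc2a4, Slc2a8, Slc2a1 and Slc2a12 were 0.22, 0.15, 0.31 and 0.17. Those of the scarcer Slc2a3, Slc2a10 and Slc2a13 were 0.20, 0.24 and 0.33, so the SE did not follow the level alone. None of Slc2a1, Slc2a4, Slc2a6, Slc2a8, Slc2a10, Slc2a12 and Slc2a13 passed the threshold in any of the fits without a library by edgeR. A miss does not show equal levels: the 95% interval of Slc2a4 runs from a fold of 0.580 to 1.19 and that of Slc2a13 from 0.434 to 1.25.

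Levels of different carriers were set side by side in the deposited FPKM, which divide by gene length. Slc2a4 had a median of 144.7 FPKM over the 6 libraries, with a range from 114 to 189. It was followed by Slc2a8 with a median of 5.25, Slc2a1 with 3.53 and Slc2a12 with 3.03 FPKM. Slc2a4 stood clear of Slc2a8, and Slc2a12 clear of the next gene, with no overlap of ranges. Slc2a8, Slc2a1 and Slc2a12 overlapped as neighbours, with Slc2a8 above Slc2a1 in 5 of 6 libraries and Slc2a1 above Slc2a12 in 4 of 6.

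All other members had medians under 1 FPKM. They were Slc2a3 at 0.745, Slc2a10 at 0.526, Slc2a9 at 0.236, Slc2a6 at 0.165, Slc2a5 at 0.126 and Slc2a13 at 0.113 FPKM, and each overlapped the next in range. The order differed between the groups. By medians over the 3 libraries, Slc2a5 was seventh of 10 in libraries labelled MP, at 0.241, 0.342 and 0.343 FPKM, and last in control libraries, at 0.0122, 0 and 0 FPKM. Slc2a10 lay above Slc2a3 in every library labelled MP and below it in every control library. In MP replicates 1, 2 and 3 Slc2a10 had 0.722, 0.611 and 0.643 FPKM and Slc2a3 0.463, 0.575 and 0.578 FPKM. In Ctrl replicates 1, 2 and 3 Slc2a10 had 0.441, 0.330 and 0.439 FPKM and Slc2a3 1.14, 0.912 and 1.27 FPKM.

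**Figure D3:**
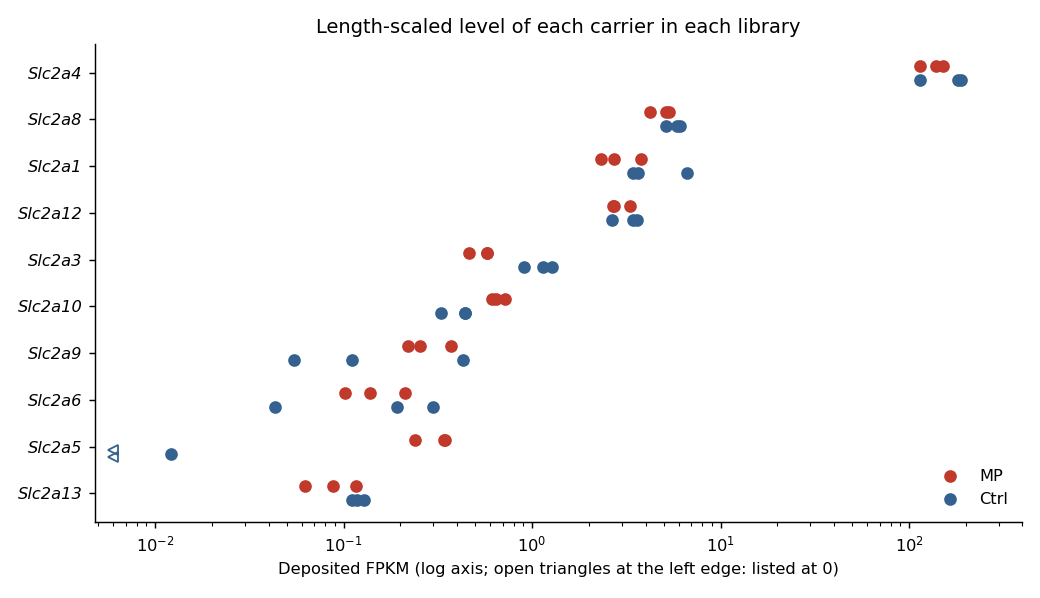
Deposited FPKM of each carrier in each library (horizontal log axis; open triangles mark values listed at 0), with libraries labelled MP drawn above those labelled Ctrl in each row. Slc2a4 lies between 114 and 189 FPKM, and every other carrier below 7 FPKM.

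Slc2a4 made up 91.9%, 91.5% and 90.3% of the summed FPKM of the 10 carriers in MP replicates 1, 2 and 3, and 88.6%, 91.8% and 92.5% in Ctrl replicates 1, 2 and 3. The sum was 147 ± 19.2 FPKM in libraries labelled MP and 177 ± 42.4 FPKM in control libraries (SD, n = 3 each). The other 9 carriers together had 13.3, 12.9 and 12.2 FPKM in libraries labelled MP, each below the 14.7, 17.0 and 14.8 FPKM of the control libraries. That separation was not tested and may depend on scaling. The depth behind FPKM lay 4.53%, 5.55% and 6.36% from the library total in MP replicates 1, 2 and 3. In Ctrl replicates 1, 2 and 3 it lay 10.8%, -12.2% and -12.1% from it. Within these 9, Slc2a5 took 1.81%, 2.66% and 2.81% in libraries labelled MP and 0.0830%, 0% and 0% in control libraries. The rise of Slc2a5 thus left it a minor carrier transcript by length-scaled level. Slc2a3 took 4.23% ± 0.664 of the same sum in libraries labelled MP and 7.24% ± 1.69 in control libraries. Slc2a1 took 22.9% ± 5.03 in libraries labelled MP and 29.0% ± 8.69 in control libraries, and Slc2a8 38.4% ± 5.94 in libraries labelled MP and 36.8% ± 2.51 in control libraries, and the libraries of the groups overlapped for both. The FPKM ratio of Slc2a4 to Slc2a1 was 39.6, 50.6 and 49.4 in libraries labelled MP and 31.3, 28.6 and 53.1 in control libraries, and the groups overlapped.

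For the 3 members with the smallest p, the genes of most like pattern were found by the root mean square difference of log2 CPM, each centred on its mean over the 6 libraries. The candidates were protein-coding genes averaging 5 CPM or more, 9435 for Slc2a3 and 9436 for the others. Closest to Slc2a5 were Qprt, an enzyme of NAD synthesis, at a difference of 0.867, Sln, the calcium pump regulator sarcolipin, at 0.941, and Smoc1, a matrix protein, at 1.15. These differences are larger than those of the partners of Slc2a3 and Slc2a10. Sln was lower in MP replicate 1 (20.1 CPM) than in MP replicates 2 and 3 (111 and 105 CPM). Slc2a5 was also lowest there among the libraries labelled MP, but by far less, at 20 counts against 24 and 29. Whether that difference of Slc2a5 exceeds counting error was not tested.

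Slc2a3 had close partners in Pcp4l1 (0.0882), Adhfe1 (0.0898), an alcohol dehydrogenase family member, and Calm3 (0.109), a calmodulin gene. Pcp4l1 had 18.0, 23.1 and 19.9 CPM in MP replicates 1, 2 and 3 and 38.9, 31.4 and 45.8 CPM in Ctrl replicates 1, 2 and 3. The partners of Slc2a10 were Rgma (0.0581), a BMP co-receptor, Pkd2 (0.0587), a cation channel, and St5 (0.0606), and Pkd2 had 55.0, 43.6 and 50.2 CPM in libraries labelled MP and 35.0, 27.1 and 34.1 CPM in control libraries. Such likeness over 6 libraries describes the pattern alone.

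**Figure D4:**
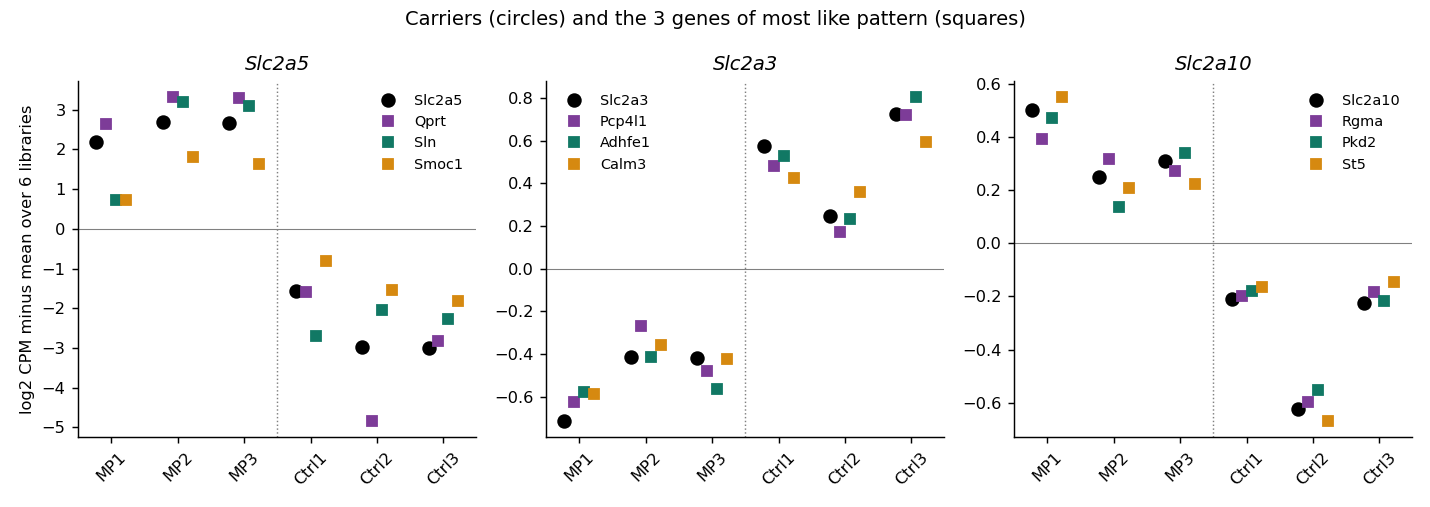
Log2 CPM minus its mean over the 6 libraries (vertical axes) for Slc2a5, Slc2a3 and Slc2a10 (circles) and the 3 genes of most like pattern for each (squares), libraries labelled MP left of the dotted line. The root mean square differences are 0.867 to 1.15 in the Slc2a5 panel and 0.0581 to 0.109 in the other panels.

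The genes that move carriers to the surface, control their transcription or use their substrates were taken from 5 lists with 60 genes, of which 58 were tested. Past the threshold over all genes was 1 of 58, and 1.30% of all genes tested passed. That gene was Sord, sorbitol dehydrogenase, which makes fructose from sorbitol. It had 123, 105 and 123 CPM in MP replicates 1, 2 and 3, against 72.2, 69.9 and 75.8 CPM in Ctrl replicates 1, 2 and 3, with no overlap. The log2 fold change was 0.69 ± 0.11 (SE, edgeR adjusted p = 0.0410). The adjusted p was 0.0191 without Ctrl replicate 1, and ran from 0.101 to 0.19 without each of MP replicates 1, 2 and 3 and Ctrl replicates 2 and 3. The other 5 genes of fructose and polyol use did not pass, among them Khk, which phosphorylates fructose, at 19.9 ± 1.84 CPM in libraries labelled MP and 22.7 ± 4.65 CPM in control libraries. The median log2 fold change of these 6 genes was 0.23.

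Of 23 genes of GLUT4 storage vesicles and traffic, 0 passed by edgeR, 14 had a positive log2 fold change and the median was 0.02. Closest to the threshold were Myo1c, a motor that brings GLUT4 vesicles to the membrane, and Tbc1d1, a Rab GTPase-activating protein that holds them back. Myo1c had 102, 89.7 and 94.5 CPM in libraries labelled MP and 73.0, 70.7 and 63.8 CPM in control libraries (log2 fold change 0.47 ± 0.11, edgeR adjusted p = 0.0875). Tbc1d1 had 93.5, 79.5 and 71.6 CPM in libraries labelled MP and 108, 151 and 197 CPM in control libraries (-0.89 ± 0.22, edgeR adjusted p = 0.0949). Neither gene's groups overlapped. Without Ctrl replicate 1, 2 of the 23 were higher (Myo1c and Lrp1) and 2 lower (Tbc1d1 and Rab10) past the threshold, where 13.1% of all genes passed, with adjusted p-values of 0.0317 for Myo1c, 0.0243 for Lrp1, 0.0135 for Tbc1d1 and 0.0422 for Rab10. Akt2, a kinase of the insulin pathway, was at 427 CPM in libraries labelled MP and 428 CPM in control libraries on average.

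Of 13 genes of GLUT4 transcription 0 passed by edgeR with all libraries, and the median log2 fold change was -0.10. Ppargc1a, the coactivator PGC-1alpha, had 86.5, 34.7 and 35.2 CPM in MP replicates 1, 2 and 3 and 16.1, 15.5 and 25.4 CPM in Ctrl replicates 1, 2 and 3 (log2 fold change 1.46 ± 0.39, edgeR adjusted p = 0.109). Without Ctrl replicate 1, where 13.1% of all genes tested passed, 1 of these 13 was higher and 1 lower. They were Myod1, a myogenic factor, at a log2 fold change of 1.49 (edgeR adjusted p = 0.0209, against 0.569 with all libraries), and Klf15 at -0.44 (0.0399, against 0.664). Prkaa1, a catalytic subunit of AMPK, was next, at 0.27 ± 0.13 (adjusted p = 0.291). Of 11 genes of surface control and glucose sensing 0 passed, with a median of -0.02. Mlxipl, the glucose-responsive factor ChREBP, averaged 88.3 ± 10.8 CPM in libraries labelled MP and 56.3 ± 6.83 CPM in control libraries (0.65 ± 0.14, edgeR adjusted p = 0.0766). Arrdc3, an arrestin-like adaptor, averaged 192.5 ± 82.4 CPM in libraries labelled MP and 512 ± 269.6 CPM in control libraries (-1.41 ± 0.48, edgeR adjusted p = 0.167). Ctrl replicate 1, at 201 CPM, lay among the libraries labelled MP. Without that library, where 13.1% of all genes tested passed, 1 of the 11 was higher and 1 lower. They were Mlxipl, at an edgeR adjusted p of 0.0342, and Arrdc3, at 0.0176 with a log2 fold change of -1.79. Of 7 genes of myo-inositol handling 5 were tested and 0 passed, with a median of -0.27. Impa2, an inositol monophosphatase, averaged 11.4 ± 6.82 CPM in libraries labelled MP and 4.25 ± 0.289 CPM in control libraries (1.43 ± 0.40, edgeR adjusted p = 0.117). It had 19.2, 6.59 and 8.41 CPM in MP replicates 1, 2 and 3, and 3.92, 4.35 and 4.47 CPM in Ctrl replicates 1, 2 and 3. The size of the difference thus leans on MP replicate 1. Impa1 stood at -0.27 ± 0.15. At an unadjusted p under 0.05, 11 of the 58 list genes were found, against 20.8% of all genes tested, and DESeq2 called 7 of the 58, against 7.11% of all genes.

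**Figure D5:**
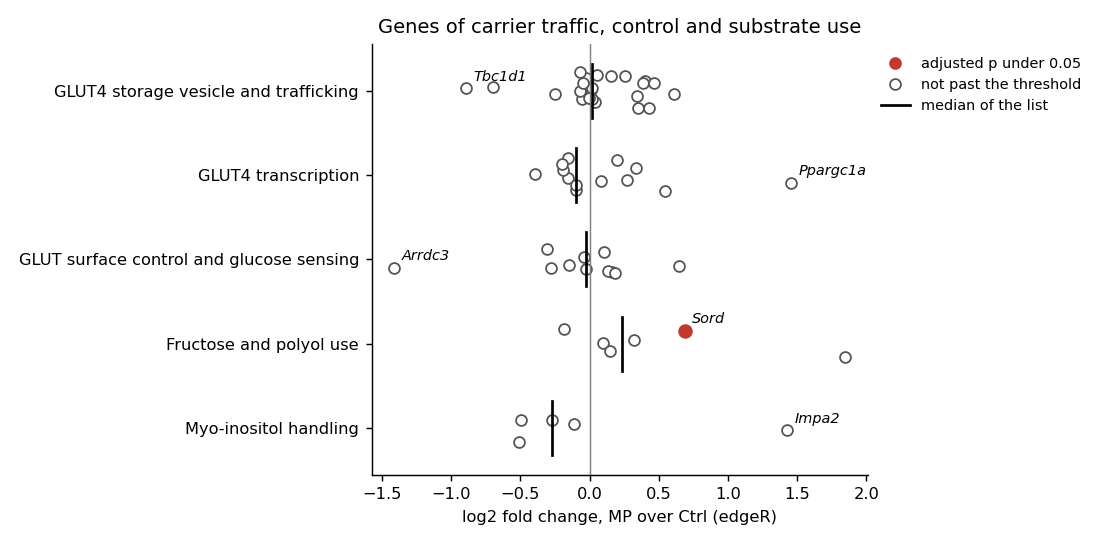
Log2 fold change, MP over Ctrl, by edgeR (horizontal axis) for the 58 tested genes of the 5 lists, with the median of each list as a bar; a filled point passed an adjusted p of 0.05. Sord is the single filled point, and the list medians lie between -0.27 and 0.23.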

How the data were processed

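The authors sequenced RNA of 6 gastrocnemius libraries, grouped and numbered by sample title. Per the labels' protocols, each NEBNext Ultra library was made from 3 µg of Trizol RNA. HISAT2 2.0.5, featureCounts 1.5.0-p3 and GRCm38 are named by the submitters' processing notes. Strand setting and annotation were not given in the sources used here. Deposited counts are raw whole-number read counts per gene, from the values and per the file headers. Deposited FPKM, so named per the file headers, rest on gene length and on a depth that, from the values, lies -12.2% to 10.8% from each library's total. In each library that depth was close to the TMM library size. It was 24440695 against 24200230 in MP replicate 1 and 21190322 against 21161397 in Ctrl replicate 2. FPKM are thus not a scaling apart from TMM. The coordinates of all 10 members equal those of GENCODE M21, whose exons gave the overlaps.

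The test was edgeR 4.0.16 in R 4.3.3 (quasi-likelihood, legacy = FALSE, TMM, filterByExpr), adjusted by Benjamini-Hochberg over 14973 genes, threshold 0.05. An SE is the size of the log2 fold change over the square root of F. Errors of means are SDs. For centred log2 CPM, 0.5 was added to counts. Counting intervals and the floor cover counting error alone. Alternatives were DESeq2 1.42.0, limma 3.58.1 (voom, and log2 FPKM with 1 or 0.1 added), other scalings and filters, each library left out, and a replicate block. The steps were also run on simulated counts, drawn from a common mean profile with no library set apart. That run does not cover an outlying library such as Ctrl replicate 1. Replicates of a group differed by more than sampling noise (chi-square per degree of freedom 11.8 to 87.3).

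The members and lists were chosen with earlier results of these data known. By rule the text names all members, Hk2 and Pfkfb3, markers beside a result, the 3 genes most like each of the 3 members with the smallest p, and of each list up to 4 genes past the threshold or else the 2 with the smallest p. Khk, Akt2, Lrp1, Rab10, Myod1, Klf15, Tbpl1, Gm4482, Gm13093, Slc2a2 and Slc2a7 fall outside that rule and were chosen after their values were seen.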

Additional observations from a re-analysis of the deposited data

How the results depend on the processing

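With all 6 libraries 1 of 10 members, 1 of 58 list genes and 194 of all genes passed by edgeR. Leaving out each library in turn gave 0 to 3 members, 0 to 9 list genes and 0 to 1956 genes, the highest without Ctrl replicate 1. Without MP replicate 1, MP replicate 2, MP replicate 3, Ctrl replicate 1, Ctrl replicate 2 and Ctrl replicate 3 the members were 1, 0, 0, 3, 0 and 0, and all genes 54, 1, 1, 1956, 3 and 0. The 3 were Slc2a3, Slc2a5 and Slc2a9. DESeq2 called 2 members, 7 list genes and 1065 genes. The filter of 1 CPM, which drops Slc2a5, Slc2a6 and Slc2a13, gave 0 members. No filter gave 124 genes, and limma gave 112 (log2(FPKM + 1)) and 121 (log2(FPKM + 0.1)); these 3 and limma-voom gave 0 list genes. The replicate block gave 0 members, 0 list genes and 5 genes. Same-numbered libraries did not deviate together (correlations of deviations from group means -0.03, -0.17 and 0.15), so the numbers are not taken as pairs; in 2 of 3 numbers an MP library correlated better with a control library of another number. The cause was not tested for any of these. Under scaling by library totals the median over all genes was 0.12, against -0.03 (log2), and gave 205 genes higher and 54 lower, against 118 and 76, while every member kept its sign. Slc2a6 (-0.28 with all libraries) ran from -0.73 to 0.34 over the fits without a library, positive without Ctrl replicate 1, and was 0.024 in limma-voom. The other 9 members kept their direction in every alternative that tested them. The order of levels was the same with CPM per kb. That measure rests on the same counts and gene lengths as FPKM, so it cannot change the order within a library and does not test it. Depth limits Slc2a5, Slc2a6, Slc2a9 and Slc2a13, which had 1 to 53 counts where they were read.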
